A study of Homo sapiens with 15 samples.

Results

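This report describes the knockdown of B4GALT5 in AsPC-1 cells against its control, read across all genes. It rests on 6 of the 15 libraries of the series, chosen by their labels: 3 of AsPC-1 transfected with a control siRNA (siNC) and 3 of AsPC-1 transfected with an siRNA against B4GALT5 (siB4GALT5). AsPC-1 is an established human pancreatic ductal adenocarcinoma line, and an siRNA is a short double-stranded RNA that lowers a target mRNA through RNA interference. Both groups carry a transfection, and the labels give no dose, time or siRNA sequence and do not say whether a group's libraries are separate cultures or received the same siRNA. The other 9 libraries are AsPC-1 and Capan-1 groups around a B3GNT3 knockdown, of which only the 3 AsPC-1 siB3GNT3 libraries are used below, as a second knockdown made in the same line. Expression was measured by RNA sequencing and is given as FPKM, a fragment count scaled for transcript length and library size, so each value is a share of its library.

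B4GALT5 is a Golgi galactosyltransferase that adds galactose to glucosylceramide and so makes lactosylceramide, the parent of most gangliosides and globosides. Lactosylceramide and its products sit in the outer leaflet of the plasma membrane, where they take part in adhesion and receptor signalling. Interferon and stress genes are given here only as a base for comparison. The weight lies on the rest of the transcriptome.

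Of 25503 genes in the table, 4480 were listed at 0 in all 6 libraries and 10601 reached 1 FPKM in at least 3 of them and were tested. The steps between the lowest values put the 6 libraries within 0.974 to 1.01 of the depth of siNC replicate 1, but absolute depth is unknown. The siNC libraries lay 0.144 to 0.146 apart, as the root mean square difference of log2(FPKM + 1) over genes, and 0.456 to 0.495 from the siB4GALT5 libraries. Replicates 1 and 2 of siB4GALT5 lay 0.151 apart, and replicate 3 stood off from them at 0.242 and 0.261. The 3 siB3GNT3 libraries hold one, labelled replicate 3, that lay 0.141 to 0.150 from the siNC libraries, so each tested difference from siB3GNT3 is given with and without it. Of 11 epithelial carcinoma markers 7 reached 1 FPKM in at least 1 library, led by KRT8, KRT18 and KRT19, with a summed level of 2030 to 2090 FPKM in siNC and 1942 to 1956 FPKM in siB4GALT5. KRT7, CDH1, CEACAM5 and CEACAM6 stayed below 1 FPKM in all 6, so the epithelial label rests on the other markers. Of the fibroblast, leucocyte, endothelial, acinar and endocrine markers only LUM and CD68 reached 1 FPKM. The summed fibroblast markers ran from 80.8 to 92.6 FPKM in siNC and from 70.8 to 92.2 FPKM in siB4GALT5, and the leucocyte markers from 39.0 to 40.6 and from 48.5 to 51.5 FPKM, nearly all of it LUM and CD68.

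Most tested genes differed between the groups, and most of them by less than 2-fold. With limma and a Benjamini-Hochberg adjusted p under 0.05, 5986 of 10601 genes changed, which is 56.5% of those tested. Of these 3617 rose (34.1% of the genes tested) and 2369 fell (22.3%). Changes of at least 2-fold were far fewer: 327 genes rose that much (3.08%) and 113 fell that much (1.07%), together 440 genes (4.15%). The 3 siB4GALT5 libraries lay wholly beyond the 3 siNC libraries in 64.3% of the genes tested, above them in 38.5% and below them in 25.8%. The median log2 fold change over all tested genes was 0.06, and each list below is to be read against these shares and this median. How the libraries are scaled sets the balance of rises and falls: median-ratio scaling gave 3017 rises and 2918 falls and moved the median to -0.001, whereas a common sum of FPKM gave 4389 rises and 1785 falls with a median of 0.14. A fit that also held the 3 siB3GNT3 libraries gave 4239 changed genes, 2609 up and 1630 down. Without the one labelled replicate 3, 6271 genes changed. List counts from the fit with all 3 are to be read against its lower totals.

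Falls outnumbered rises only among the most abundant genes. Among the 617 genes whose higher group mean was 100 FPKM or more, 240 fell and 174 rose (median -0.06). In the 4234 genes between 5 and 20 FPKM, 1576 rose and 880 fell (median 0.09). The most abundant mRNAs were those encoded by the mitochondrial genome, which specify subunits of the respiratory chain and ATP synthase. Of 13 such mRNAs 12 fell and the other did not pass the test (median -0.51), and together they took 23.8% to 24.8% of all FPKM in the siNC libraries and 18.2% to 19.5% in the siB4GALT5 libraries. These are bulk libraries, so fewer cells of a kind and less RNA per cell cannot be told apart.

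**Figure D1:**
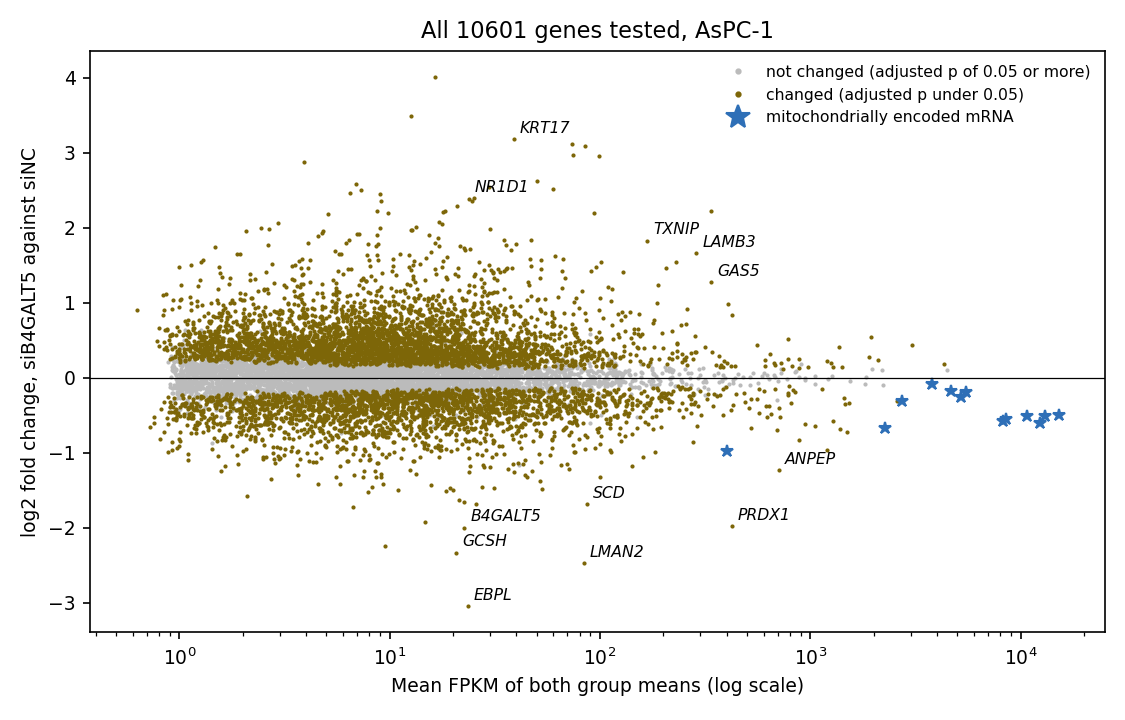
Each point is 1 of the 10601 genes tested, with the mean of both group means in FPKM on a log axis and the log2 fold change of siB4GALT5 against siNC on the other. Changed genes lie above and below the line at every level, and the mitochondrially encoded mRNAs (stars) lie at the right end below 0.

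B4GALT5 itself (chromosome 20, 49632945 to 49713878, GRCh38) was 38.7, 35.8 and 35.5 FPKM in siNC and 8.71, 8.49 and 8.03 FPKM in siB4GALT5. All 3 knockdown libraries were low and close together, far from the controls. The log2 fold change was -2.001 (SE 0.06, limma adjusted p = 9.44e-07), and with siB3GNT3 the gene stayed at 35.0, 33.5 and 36.7 FPKM. Its relative B4GALT1, the main galactosyltransferase of N-glycans, moved the other way. It was 18.95, 20.2 and 21.1 FPKM in siNC and 74.5, 73.9 and 73.7 FPKM in siB4GALT5 (log2 fold change 1.83, SE 0.06, limma adjusted p = 9.41e-07). The groups were far apart, but siB3GNT3 replicates 1 and 2 stood as high, at 72.3 and 71.6 FPKM, with 19.4 FPKM in the library labelled replicate 3. B4GALT1 was chosen after its values were seen.

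Genes that make or use lactosylceramide moved in both directions. Of 18 tested, 4 rose and 7 fell, and the median of -0.08 turned to 0.005 with libraries set to a common sum. The target B4GALT5 is itself among the 7 that fell, and was the only gene of the list past 2-fold. GAL3ST1, which makes sulfatide, fell by 0.77 on the log2 scale, and NEU3, the plasma membrane sialidase that trims gangliosides, fell by 0.60.

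The secretory pathway around the Golgi held a few large changes, in lists whose shares of changed genes were not far from those of all genes. Over all tested genes 34.1% rose and 22.3% fell. The shares were 41.8% and 23.6% for coats and cargo receptors, and 36.8% and 13.2% for Golgi matrix and tethers. For N-glycan assembly they were 31.7% and 24.4%. LMAN2, known as VIP36, is a lectin that carries high-mannose glycoproteins between endoplasmic reticulum and Golgi. It was 140.6, 142.9 and 142.6 FPKM in siNC and 27.3, 26.4 and 21.1 FPKM in siB4GALT5 (log2 fold change -2.47, SE 0.09, limma adjusted p = 1.61e-06). With siB3GNT3 it stayed at 147.0, 143.9 and 144.1 FPKM, level with the controls in all 3 libraries. In its list of coat proteins and cargo receptors between endoplasmic reticulum and Golgi, 23 of 55 genes rose and 13 fell (median 0.13, with 8 falls at a common sum or with the siB3GNT3 libraries in the fit), and LMAN2 was the only one past 2-fold. Among the others, the fusion protein STX5 rose by 0.77 and the cargo adaptor TMED9 by 0.69. Of 38 Golgi matrix proteins and tethers 14 rose and 5 fell (median 0.07), GOLGA2 by 1.16 and GCC1 by 0.88 upwards, although GOLGA2 has 9 named pseudogenes in GENCODE 29 to which its reads may be shared. Of 41 genes of N-glycan assembly 13 rose and 10 fell, with a median of -0.02 that turned to 0.068 at a common sum and to 0.008 without siB4GALT5 replicate 2 or replicate 3. Without siNC replicate 2 only 6 fell, and with the siB3GNT3 libraries in the fit 7 rose. GANAB, the catalytic subunit of glucosidase II, rose from 63.9, 65.4 and 67.7 FPKM to 149.7, 148.4 and 162.6 FPKM (1.21, SE 0.05, limma adjusted p = 3.02e-06). It was 185.5, 181.9 and 59.98 FPKM in siB3GNT3. RPN2 of the oligosaccharyltransferase fell by 0.52.

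The largest falls were single genes of unlike function. They were ranked only among genes whose groups did not overlap, so the lack of overlap was set by the choice. EBPL, a relative of the sterol isomerase EBP (chromosome 13, 49660674 to 49691487), was 40.4, 41.2 and 46.2 FPKM in siNC and 5.21, 4.402 and 3.36 FPKM in siB4GALT5. GCSH, the hydrogen carrier of the mitochondrial glycine cleavage system (chromosome 16, 81081945 to 81096395), was 34.5, 33.6 and 37.8 against 6.06, 5.61 and 6.96 FPKM. The knockdown libraries were low in both genes. Their log2 fold changes were -3.05 (SE 0.12, limma adjusted p = 2.24e-06) and -2.33 (SE 0.08, limma adjusted p = 1.61e-06). GCSH has 5 named pseudogenes in GENCODE 29, so the split of its reads is uncertain.

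The forkhead transcription factor FOXS1 went from 14.7, 16.3 and 17.8 FPKM to 3.02, 3.18 and 1.85 FPKM. DPYSL2, which binds tubulin and is best known from growing axons, went from 24.1, 24.5 and 23.0 FPKM to 5.45, 5.55 and 5.54 FPKM. DPYSL2 varied little among the knockdown libraries and FOXS1 was lowest in replicate 3. The log2 fold changes were -2.24 and -1.93 (SE 0.15 and 0.06, limma adjusted p = 1.32e-05 and 9.41e-07). PRDX1, an abundant peroxiredoxin that reduces hydrogen peroxide, went from 652.4, 672.2 and 692.7 FPKM to 177.8, 192.7 and 143.2 FPKM (-1.98, SE 0.10, limma adjusted p = 4.75e-06). KIAA1191, a gene of little known function, fell by 1.68. CLRN3, a tetraspan membrane protein, fell by 1.50, and the guanine deaminase GDA by 1.51. PLAT, the tissue plasminogen activator, fell by 1.66 and the calpain CAPN5 by 1.50. SCD and ELOVL6, which desaturate and elongate fatty acids, fell by 1.69 and 1.53. Among genes above 100 FPKM in 1 group, the falls after LMAN2, PRDX1 and SCD were CORO1C, an actin-binding coronin (1.32 on the log2 scale), ANPEP, the aminopeptidase CD13 (1.24), and DBI, which carries acyl-CoA (1.22).

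**Figure D2:**
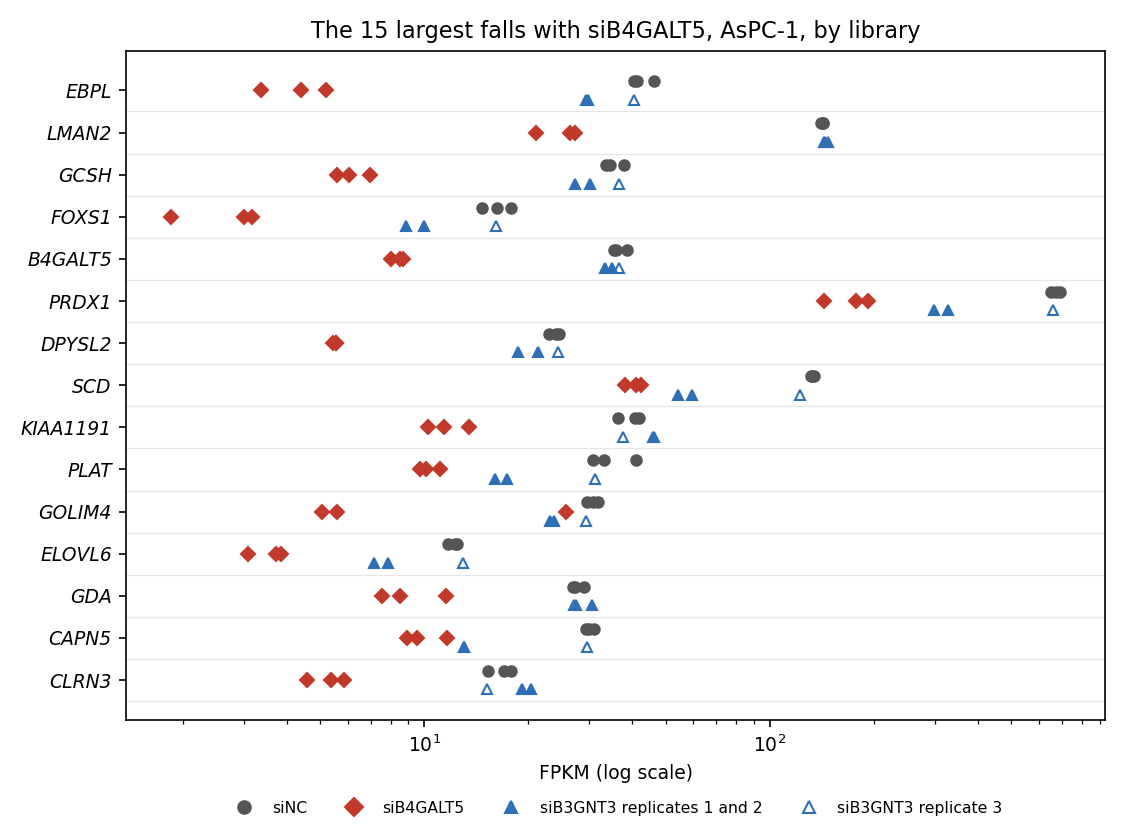
FPKM on a log axis in each siNC (circles), siB4GALT5 (diamonds) and siB3GNT3 (triangles) library of AsPC-1 for the 15 genes with the largest falls, the target included; the open triangle is the library labelled siB3GNT3 replicate 3. In LMAN2, KIAA1191, GDA and CLRN3 the siB3GNT3 libraries lie near or above the controls, and in GOLIM4 siB4GALT5 replicate 3 stands at 25.7 FPKM, near them.

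Set directly against siB3GNT3, the other knockdown in this line, 534 of 10631 genes differed with all libraries (5.02%), 251 higher with siB4GALT5 (2.36%) and 283 lower (2.66%). Without the library labelled siB3GNT3 replicate 3 it was 2693 of 10540 (25.6%), 1422 higher (13.5%) and 1271 lower (12.1%). Of the 15 genes with the largest falls 10 were lower than in siB3GNT3 with all libraries and 13 without the doubted one. Of the 15 with the largest rises 1 was higher with all libraries and 7 without it. Both comparisons use the same siB4GALT5 libraries, by whose values these genes were chosen, so the counts are a description. The same holds for p-values of such genes against siB3GNT3, which are no independent test. The 15 falls include the target B4GALT5. LMAN2 differed from siB3GNT3 by -2.51 without the doubted library and by -2.50 with all libraries (limma adjusted p = 8.47e-05 and 0.000454). EBPL, GCSH, DPYSL2 and KIAA1191 differed by -2.54, -2.05, -1.69 and -1.89 without the doubted library (limma adjusted p = 0.000141, 0.000104, 0.000104 and 0.000159). With all libraries they differed by -2.69, -2.16, -1.78 and -1.80 (limma adjusted p = 0.00159, 0.00159, 0.00159 and 0.00184). PRDX1 was 328.3 and 298.7 FPKM in siB3GNT3 replicates 1 and 2, between siNC and siB4GALT5, with 661.7 FPKM in replicate 3, and its difference passed only without replicate 3 (-0.88, limma adjusted p = 0.00352, and -1.24, adjusted p = 0.0607, with it). SCD, at 59.5 and 54.2 FPKM in replicates 1 and 2, was nearer to its siB4GALT5 than to its siNC values, as were CAPN5 (13.1 and 13.1 FPKM) and DBI (39.5 and 36.1 FPKM).

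A few falls outside the naming rule followed the same pattern and were chosen after their values were seen. The aminopeptidase XPNPEP1 was 23.4 ± 1.64 FPKM (SD, n = 3) in siNC and 8.04, 8.19 and 7.75 FPKM in siB4GALT5 (-1.44, SE 0.07, limma adjusted p = 3.8e-06), and 22.9, 23.8 and 22.5 FPKM in siB3GNT3. ARL6IP1, a protein that shapes the endoplasmic reticulum, was 217.6, 208.4 and 226.1 against 100.9, 102.3 and 107.0 FPKM (-1.06, SE 0.05, limma adjusted p = 3.91e-06), with 224.9, 212.5 and 217.1 FPKM in siB3GNT3. In both genes only the siB4GALT5 libraries were low. ARL6IP1 has 3 named pseudogenes in GENCODE 29.

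Complement regulators of the cell surface split. CD46, which helps factor I to cleave C3b and C4b, was 64.3, 63.6 and 65.5 FPKM in siNC and 25.2, 24.5 and 25.6 FPKM in siB4GALT5. CD55, which speeds the decay of C3 convertases, was 31.6, 34.2 and 32.6 FPKM in siNC and 88.8, 100.4 and 113.7 FPKM in siB4GALT5. The first fell in every library and the second rose in every library, with log2 fold changes of -1.33 and 1.59 (SE 0.05 and 0.09, limma adjusted p = 1.61e-06 and 6.55e-06). CD46 was not low in siB3GNT3, at 70.8, 68.7 and 60.8 FPKM. CD55 was raised there in replicates 1 and 2, at 57.56 and 57.64 FPKM, with 32.3 FPKM in replicate 3. In the whole list of complement and coagulation genes 4 of 17 rose and 7 fell (median -0.08, and 0.011 with no filter on low values).

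Outside interferon and stress genes, and among genes with a group mean of at least 5 FPKM, the largest rise was KRT17, a keratin of basal and activated epithelia (chromosome 17, 41619442 to 41624575). It was 7.71, 7.04 and 6.04 FPKM in siNC and 67.0, 67.1 and 78.0 FPKM in siB4GALT5 (log2 fold change 3.18, SE 0.09, limma adjusted p = 9.41e-07). KRT17 has 8 named pseudogenes in GENCODE 29, so its level is uncertain. CYP1B1, a cytochrome P450 that oxidises estrogens and polycyclic hydrocarbons, went from 1.72, 2.52 and 1.93 FPKM to 17.3, 19.7 and 10.9 FPKM (2.44, SE 0.20, limma adjusted p = 3.28e-05). NR1D1, the clock repressor REV-ERB alpha, went from 7.09, 7.39 and 6.15 FPKM to 43.4, 46.8 and 31.7 FPKM (2.39, SE 0.14, limma adjusted p = 7.86e-06). A lack of overlap between the groups was a condition for ranking these genes. In CYP1B1 and NR1D1 siB4GALT5 replicate 3 was the lowest of the knockdown libraries. NR1D1 overlaps THRA on the opposite strand and CYP1B1 overlaps RMDN2 there, and no source used here says that reads were counted by strand.

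The other large rises included signals, death genes and enzymes. The cytokine gene IL1A rose by 2.29, from 6.59, 6.21 and 6.32 FPKM to 33.6, 44.3 and 28.7 FPKM. RHOB, a small GTPase of endosomes and actin, rose by 2.22, and RAET1L, which encodes a stress ligand of the receptor NKG2D, also by 2.22. PMAIP1, the BH3-only death protein NOXA, went from 6.28, 5.40 and 6.20 FPKM to 28.9, 29.3 and 26.4 FPKM (2.07, SE 0.07, limma adjusted p = 1.61e-06). TYMP, thymidine phosphorylase, rose by 2.05 and its sister enzyme of pyrimidine salvage UPP1 by 1.78. The deubiquitinase OTUD1 rose by 2.06, the LC3 relative GABARAPL1 by 1.90, the histone H3 lysine demethylase KDM6B by 1.93, AVPI1 by 1.98 and HIP1R, an adaptor of clathrin-coated pits, by 1.87. UPP1 and HIP1R were chosen after their values were seen. LINC01589, a long intergenic RNA, rose by 1.89.

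**Figure D3:**
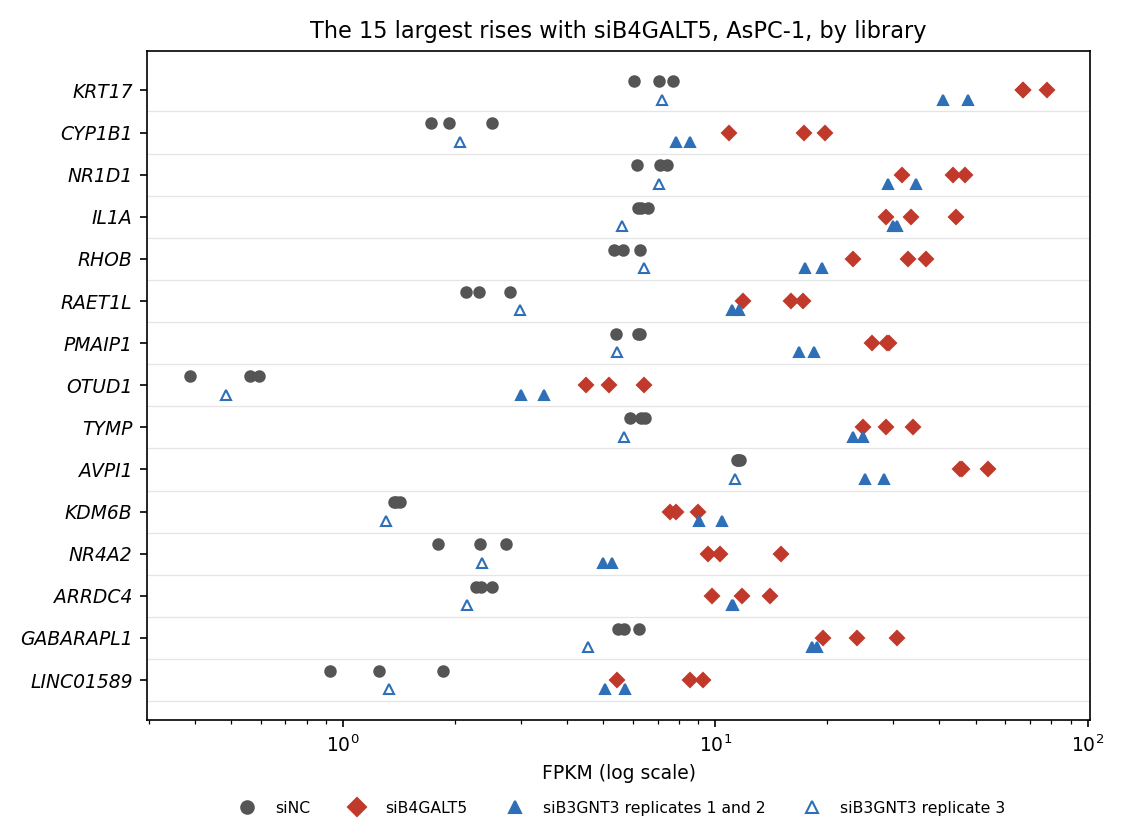
FPKM on a log axis in each siNC, siB4GALT5 and siB3GNT3 library of AsPC-1 for the 15 genes with the largest rises outside the interferon and stress lists, with symbols as for the falls. Each siB4GALT5 library lies above each siNC library, which was a condition of the choice. The siB3GNT3 replicates 1 and 2 lie above the siNC libraries as well.

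Of 14 tested transcription factors of the AP-1, MAF, NFE2L and BACH families 12 rose and 1 fell (median 0.77). All are basic leucine zipper proteins, and some of them, such as FOS and JUN, are known as immediate-early genes of growth factor and stress signalling. JUN went from 19.1, 17.6 and 19.5 FPKM to 55.9, 57.9 and 46.6 FPKM (1.46, SE 0.09, limma adjusted p = 8.9e-06), and MAFF from 3.36, 2.68 and 3.01 FPKM to 12.9, 13.95 and 11.6 FPKM (1.78, SE 0.09, limma adjusted p = 5.16e-06). In siB3GNT3 JUN was 47.5, 48.85 and 19.3 FPKM and MAFF was 9.85, 10.7 and 3.01 FPKM. Neither difference between the knockdowns passed, with or without siB3GNT3 replicate 3. BACH1 rose by 0.99 and NFE2L1 by 1.20. FOS and FOSB, chosen after their values were seen, were under 1 FPKM in each siNC library and reached 3.14, 2.56 and 1.84 FPKM and 2.96, 2.75 and 1.47 FPKM in siB4GALT5. Replicate 3 was the lowest knockdown library in both. On the opposite strand FOSB overlaps ERCC1 and MAFF overlaps PLA2G6. The KLF and SP factors, zinc finger proteins that bind GC-rich promoters, had 9 of 15 members up and 1 down (median 0.73). KLF4 went from 17.2, 16.6 and 17.6 FPKM to 61.9, 63.0 and 49.6 FPKM (1.70, SE 0.09, limma adjusted p = 5.72e-06), KLF10 rose by 1.45 and KLF11 by 1.37. In siB3GNT3 KLF4 was 33.9, 35.5 and 17.5 FPKM. NR4A2, an orphan nuclear receptor, rose by 1.92, and it stood higher than in siB3GNT3 (1.02 without the doubted library, limma adjusted p = 0.00722, and 1.31 with it, adjusted p = 0.0437).

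Clock genes rose too. In the circadian clock, CLOCK and BMAL1 drive genes through E-boxes, and the PER, CRY and REV-ERB proteins feed back on them. Of 19 clock genes 15 rose and 2 fell (median 0.61). PER1 went from 2.07, 1.29 and 1.42 FPKM to 7.53, 7.87 and 4.88 FPKM (1.57, SE 0.17, limma adjusted p = 0.000159), and PER2 rose by 1.12. NFIL3, a repressor of the output branch, went from 2.28, 2.40 and 2.00 FPKM to 11.2, 12.1 and 8.56 FPKM (1.84, SE 0.12, limma adjusted p = 1.34e-05). In siB3GNT3 PER1 was 6.16, 6.99 and 1.39 FPKM and NFIL3 was 10.8, 11.45 and 2.13 FPKM. Neither difference between the knockdowns passed, with or without siB3GNT3 replicate 3. NR1D2 rose by 0.94. CIART and BHLHE40, which repress CLOCK and BMAL1, rose by 0.90 and 0.61. PER1, CIART and BHLHE40 were chosen after their values were seen. In all 3 the siNC and siB4GALT5 libraries did not overlap, as in 64.3% of all genes tested (38.5% with siB4GALT5 above).

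The list of the MYC network holds MYC and its partners, the related MLX branch, which senses sugars through MLXIP and MLXIPL, and TXNIP and ARRDC4, known targets of that branch. Of 12 tested 8 rose, TXNIP and ARRDC4 among them, and 1 fell (median 0.39). TXNIP, which binds thioredoxin and limits glucose uptake, was 73.4, 74.6 and 71.6 FPKM in siNC and 248.7, 272.5 and 265.6 FPKM in siB4GALT5 (1.83, SE 0.05, limma adjusted p = 9.41e-07). ARRDC4, the arrestin relative that shares this role, was 2.28, 2.52 and 2.35 against 14.02, 11.8 and 9.81 FPKM (1.91, SE 0.12, limma adjusted p = 9.25e-06). Both stood clear of the controls in every library, as the ranking of rises required. In siB3GNT3 replicates 1 and 2 TXNIP reached 144.8 and 140.4 FPKM, below siB4GALT5 (0.87 without the doubted library, limma adjusted p = 0.00029, and 1.18 with it, adjusted p = 0.0415). ARRDC4 was 11.1 and 11.2 FPKM there and 2.15 FPKM in the library labelled replicate 3. Its difference from siB3GNT3 was 0.72 with all libraries (SE 0.50, limma adjusted p = 0.421) and 0.07 without that one (SE 0.13, limma adjusted p = 0.722), and it passed in neither fit. MXD1, a MAX partner that opposes MYC, rose by 1.55 and MLXIP by 0.64.

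Since several of these genes are known to be read through E-boxes or cyclic AMP response elements, the 250 bases before their RefSeq starts are shown (GRCh38.p14, written 5′ to 3′ on the gene's strand). In the first 4 the letters CACGTG of the E-box stand in capitals, in the last 2 the letters TGACGT of the core of the cyclic AMP response element. The E-box reads the same on both strands, the core was searched on both, and the motifs share the letters ACGT.
ARRDC4: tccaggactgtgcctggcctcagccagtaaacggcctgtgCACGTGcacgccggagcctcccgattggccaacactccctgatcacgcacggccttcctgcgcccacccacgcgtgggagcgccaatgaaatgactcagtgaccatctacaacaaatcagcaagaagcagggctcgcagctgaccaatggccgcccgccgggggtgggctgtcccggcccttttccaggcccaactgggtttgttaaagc
PER1: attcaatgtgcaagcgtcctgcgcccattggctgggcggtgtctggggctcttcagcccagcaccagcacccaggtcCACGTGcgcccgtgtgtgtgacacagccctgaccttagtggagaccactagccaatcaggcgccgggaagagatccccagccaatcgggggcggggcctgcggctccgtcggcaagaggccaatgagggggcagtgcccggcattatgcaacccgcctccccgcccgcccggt
BHLHE40: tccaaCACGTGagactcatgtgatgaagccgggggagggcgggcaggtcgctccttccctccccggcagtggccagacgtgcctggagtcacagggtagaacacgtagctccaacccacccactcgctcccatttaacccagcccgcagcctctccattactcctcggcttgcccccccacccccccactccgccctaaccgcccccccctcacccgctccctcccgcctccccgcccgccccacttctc
CIART: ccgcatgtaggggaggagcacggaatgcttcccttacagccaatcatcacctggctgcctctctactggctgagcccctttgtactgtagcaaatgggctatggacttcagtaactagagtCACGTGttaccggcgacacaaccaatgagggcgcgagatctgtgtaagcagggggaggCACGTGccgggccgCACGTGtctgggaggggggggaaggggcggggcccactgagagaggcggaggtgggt
FOS: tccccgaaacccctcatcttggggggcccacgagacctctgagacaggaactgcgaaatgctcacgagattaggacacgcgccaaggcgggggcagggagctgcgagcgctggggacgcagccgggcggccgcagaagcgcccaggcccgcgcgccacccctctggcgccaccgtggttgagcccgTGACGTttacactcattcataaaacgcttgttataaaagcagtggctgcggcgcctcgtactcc
FOSB: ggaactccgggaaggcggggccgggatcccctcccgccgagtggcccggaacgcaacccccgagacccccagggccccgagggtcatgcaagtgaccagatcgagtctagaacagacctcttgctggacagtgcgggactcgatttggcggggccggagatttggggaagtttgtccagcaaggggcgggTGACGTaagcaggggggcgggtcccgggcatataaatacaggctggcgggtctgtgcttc

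The windows are ARRDC4 at chr15:97960453-97960702 (plus strand), PER1 at chr17:8152405-8152654 (minus strand), BHLHE40 at chr3:4979187-4979436 (plus strand). The next are CIART at chr1:150282304-150282553 (plus strand), FOS at chr14:75278578-75278827 (plus strand) and FOSB at chr19:45467746-45467995 (plus strand). The E-box begins 210, 173 and 245 bases before the start of ARRDC4, PER1 and BHLHE40, and CIART has 3 of them, at 129, 71 and 57 bases. The core begins 64 bases before the start of FOS and 60 before that of FOSB. The E-box was present in 6.35% of the 35116 promoters of the RefSeq table and in 11.3% of the 8616 tested genes with a promoter there. It was present in 16.4% of the 269 genes that rose at least 2-fold and in 12.2% of the 82 that fell at least 2-fold. Among genes that rose, 6 of 13 clock genes had it, 3 of 7 of the MYC network, 4 of 7 of the KLF and SP list, 2 of 11 of the AP-1 and MAF list and 2 of 14 of the list with small nucleolar RNA hosts. The letters are not in the windows of TXNIP or NR1D1. The core was present in 13.0% of the genes tested, in 16.0% of those that rose at least 2-fold and in 4.88% of those that fell that much, and in 5 of 11 genes that rose in the AP-1 and MAF list. Among genes that rose it was in 2 of 7 of the KLF and SP list, 1 of 13 clock genes, 1 of 7 of the MYC network and 0 of 14 of the list with small nucleolar RNA hosts. These matches describe letters only.

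In a list that joins host genes of small nucleolar RNAs, whose introns carry guides for ribosomal RNA modification, with nuclear and other long non-coding RNAs such as NORAD and LINC-PINT, 17 of 34 rose and 2 fell (median 0.42). GAS5 went from 196.1, 191.5 and 202.4 FPKM to 449.1, 484.8 and 494.9 FPKM (1.27, SE 0.05, limma adjusted p = 2.24e-06). ZFAS1 went from 117.1, 114.6 and 119.6 FPKM to 316.9, 359.5 and 353.2 FPKM (1.54, SE 0.06, limma adjusted p = 1.7e-06). Both were far above the controls in every knockdown library, and siB3GNT3 replicates 1 and 2 were high as well, at 466.5 and 413.1 FPKM for GAS5 and 303.8 and 280.9 FPKM for ZFAS1. SNHG17 rose by 1.35 and SNHG32 by 1.18. GAS5 and ZFAS1 overlap genes on the opposite strand. Many such spliced host RNAs are degraded by nonsense-mediated decay, the pathway that removes transcripts with early stop codons. Of its 18 genes 11 rose and the other 7 did not pass the test (median 0.23), but only 7 rose with median-ratio scaling. PNRC1, a nuclear receptor coactivator, rose by 1.64, and CASC3 and RNPS1 of the exon junction complex rose by 0.81 and 0.55.

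The ZNF family, mostly C2H2 zinc finger proteins of which many silence repeats and genes, moved nearly one way. Of 252 tested 156 rose (61.9%) and 5 fell (median 0.33). The share was 65.2% on chromosome 19, where many of them are clustered, and 60.1% elsewhere. Most are expressed at a low level. Of 4956 other genes between 1.49 and 11.3 FPKM, the range of the middle ZNF genes, 32.2% rose. With a filter of 5 FPKM, which leaves fewer genes tested, 58 rose. Enzymes that modify histones had 39 of 73 members up and 10 down (median 0.26). The 10 became 6 on leaving out siB4GALT5 replicate 1 or either of siNC replicates 2 and 3, and also at a common sum or with no filter on low values. Besides KDM6B, the demethylase KDM7A rose from 1.34, 1.47 and 1.20 FPKM to 5.0, 5.598 and 6.03 FPKM (1.48, SE 0.09, limma adjusted p = 8.63e-06), KDM2A by 0.76 and the deacetylase HDAC9 by 1.34. In KDM7A the groups did not overlap, as in 64.3% of all genes tested. The siB3GNT3 replicates 1 and 2 were high as well, at 4.966 and 4.865 FPKM, with 1.18 FPKM in replicate 3.

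At the cell border, junction genes rose more often than they fell. Of 17 genes of desmosomes and adherens junctions 11 rose and 2 fell (median 0.34), and of 16 tight junction genes 9 rose and 1 fell (median 0.29). Only 4 tight junction genes rose with a filter of 5 FPKM, which left 7281 genes tested in all. Only 5 rose when the siB3GNT3 libraries entered the fit, where rises over all genes also dropped, from 3617 to 2609. PERP, a tetraspan desmosome protein, went from 15.6, 18.6 and 19.2 FPKM to 52.3, 53.9 and 41.4 FPKM (1.41, SE 0.11, limma adjusted p = 3.25e-05). CLDN1, a strand-forming claudin, went from 2.30, 2.11 and 2.11 FPKM to 8.27, 9.81 and 12.4 FPKM (1.80, SE 0.13, limma adjusted p = 1.78e-05). The siB4GALT5 libraries were high in both. In siB3GNT3 PERP was 30.8, 28.1 and 17.1 FPKM and CLDN1 was 15.01, 15.2 and 2.64 FPKM, so replicates 1 and 2 were raised as well. CTNNB1, beta-catenin, fell by 0.28.

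Matrix and adhesion genes were mixed. Of 27 genes of basement membrane and matrix 11 rose and 6 fell (median 0.10). LAMB3, a laminin chain of epithelial basement membranes, went from 143.0, 138.1 and 130.6 FPKM to 432.0, 467.1 and 412.9 FPKM (1.66, SE 0.06, limma adjusted p = 1.61e-06). In siB3GNT3 it was 325.0, 357.6 and 137.2 FPKM. CCN1, a matricellular protein, went from 14.7, 14.3 and 13.0 FPKM to 30.2, 30.4 and 30.1 FPKM (1.06, SE 0.06, limma adjusted p = 8.25e-06), while the siB3GNT3 libraries stayed at 13.3, 13.1 and 13.3 FPKM. COL18A1 fell by 1.13. Of 14 integrins 7 rose and 5 fell, among them ITGA5, the fibronectin receptor chain, up by 0.60. Of 32 extracellular proteases and inhibitors 10 rose (6 with a filter of 5 FPKM, which leaves fewer genes tested) and 9 fell. MMP14 rose by 0.82 and PLAUR, the urokinase receptor, by 0.77, whereas HTRA1 fell by 1.22. For actin and its motors 15 of 49 rose and 21 fell (median -0.11). Only 9 fell when the siB3GNT3 libraries entered the fit, where falls over all genes also dropped, from 2369 to 1630. TPM4, a tropomyosin, went from 13.6, 13.8 and 16.9 FPKM to 60.5, 57.3 and 48.1 FPKM (1.83, SE 0.11, limma adjusted p = 8.49e-06), and ANLN, anillin of the cleavage furrow, fell by 0.90. In siB3GNT3 TPM4 was 27.5, 28.2 and 14.05 FPKM and ANLN was 59.4, 57.5 and 96.7 FPKM.

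Several metabolic groups fell. Of 34 genes of the TCA cycle and its feeding reactions 18 fell and 3 rose (median -0.16). SDHA, the flavoprotein of succinate dehydrogenase, went from 85.8, 92.4 and 94.5 FPKM to 38.3, 36.7 and 45.4 FPKM (-1.16, SE 0.08, limma adjusted p = 1.92e-05). PCK2, mitochondrial PEP carboxykinase, rose by 1.04. Of 34 genes of glutathione enzymes and selenoproteins 18 fell and 4 rose (median -0.27). GGCT, which splits gamma-glutamyl dipeptides, went from 30.0, 27.2 and 29.3 FPKM to 9.78 ± 0.314 FPKM (SD, n = 3) (-1.47, SE 0.06, limma adjusted p = 2.29e-06), and GSTM4 fell by 1.42. SDHA and GGCT were low in all 3 siB4GALT5 libraries. In siB3GNT3 SDHA was 59.85, 59.7 and 89.0 FPKM and GGCT was 21.9, 20.65 and 29.4 FPKM. SDHA has 3 named pseudogenes in GENCODE 29. Of 20 genes of glycine and one-carbon metabolism 13 fell and 3 rose (median -0.28), with SHMT1 falling by 0.81 and MTHFD1 by 0.46 beside GCSH. PAICS of purine synthesis fell by 1.02 and TK1, thymidine kinase, by 0.82, in a list with 9 of 29 down and 5 up whose median of -0.08 turned to 0.004 at a common sum. In siB3GNT3 PAICS was 54.5, 50.2 and 69.6 FPKM and TK1 was 31.9, 32.2 and 76.0 FPKM. PAICS has 7 named pseudogenes in GENCODE 29.

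Of 27 kinesins, motors that walk on microtubules and move cargo or chromosomes, 16 fell and 6 rose (median -0.36). KIF14, chosen after its values were seen, was 12.3, 12.3 and 13.2 FPKM in siNC and 6.84, 6.23 and 8.87 FPKM in siB4GALT5. Of 66 DNA repair genes 25 fell and 11 rose (median -0.14), FANCI by 0.83 and PARP1 by 0.59 downwards. The 11 that rose became 6 without siNC replicate 3 or with median-ratio scaling, and 7 on leaving out siB4GALT5 replicate 1 or either of siNC replicates 1 and 2. Of 46 genes of nuclear pore and transport 15 fell and 6 rose (median -0.12). Without siB4GALT5 replicate 3, 24 fell, and without siNC replicate 2 only 3 rose, as with median-ratio scaling, whereas 10 rose at a common sum. RCC1, the exchange factor of RAN, went from 41.5, 39.9 and 40.3 FPKM to 12.8, 12.7 and 17.3 FPKM (-1.46, SE 0.11, limma adjusted p = 2.36e-05). No library overlapped, as in 64.3% of all genes tested, and siB3GNT3 stood at 32.7, 32.3 and 41.2 FPKM.

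**Figure D4:**
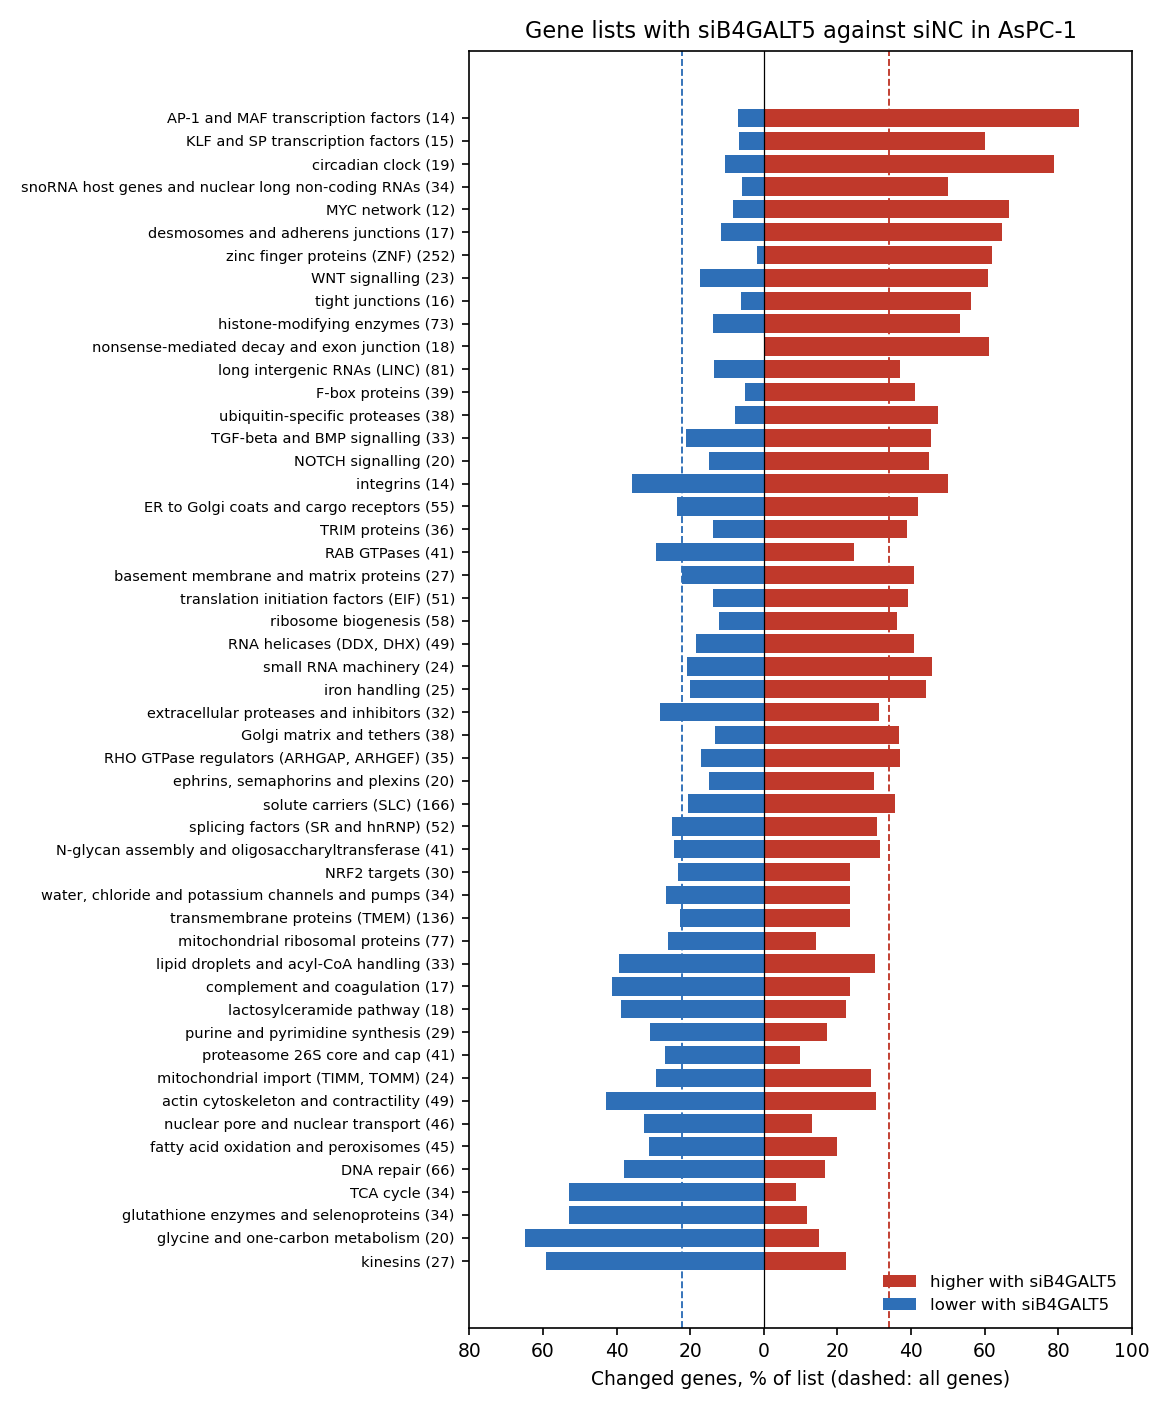
For each gene list or family with at least 10 tested genes outside the interferon and stress lists, the percentage of tested genes that rose (to the right) and fell (to the left) in siB4GALT5 against siNC, ordered by the median log2 fold change; dashed lines give 34.1% and 22.3%, the shares over all tested genes. AP-1 and MAF factors and clock genes reach furthest to the right, and one-carbon genes and kinesins furthest to the left.

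As a base for comparison, 73 of 81 interferon genes rose and 2 fell (median 1.18), with IFIH1 from 7.06, 7.69 and 7.32 FPKM to 43.3, 44.9 and 40.9 FPKM. Of 74 stress genes 47 rose and 12 fell (median 0.40), with DDIT3 from 15.01, 15.6 and 17.8 FPKM to 132.3, 155.8 and 111.6 FPKM. Without both lists 3497 of 10446 genes rose and 2355 fell.

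Replicate 3 of siB4GALT5 differed from the other 2 in a set of single genes. Among 7440 genes of at least 5 FPKM, 19 were at least 2-fold above both other knockdown libraries in replicate 3, and 14 at least 2-fold below. Replicate 1 stood apart in this way in 0 and 3 genes and replicate 2 in 0 and 0. Of the 19 genes, 16 lay in replicate 3 within 1.5-fold of the siNC mean. GLTP, which carries glycolipids such as glucosylceramide between membranes, was 16.2, 19.1 and 16.9 FPKM in siNC and 6.14, 5.72 and 32.7 FPKM in siB4GALT5. It was low in replicates 1 and 2 and above the controls in replicate 3.

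SPTLC1, a subunit of the enzyme that begins sphingolipid synthesis, was 22.7, 23.6 and 21.7 FPKM against 7.14, 7.18 and 20.8 FPKM. The Golgi protein GOLIM4 was 29.6, 31.9 and 30.7 FPKM against 5.58, 5.07 and 25.7 FPKM, and CALU, a calcium-binding protein of the secretory pathway, 58.6, 56.3 and 55.3 FPKM against 16.3, 17.3 and 53.9 FPKM. In these replicate 3 sat at or near the controls. PTGES3, an HSP90 cochaperone, showed the reverse, at 95.6, 97.7 and 32.8 FPKM in siB4GALT5 and 101.0, 100.5 and 107.4 FPKM in siNC. Of the 19 genes 9 passed the test with all 6 libraries and 19 without replicate 3, with log2 fold changes of -1.41 for GLTP, -2.33 for GOLIM4, -1.70 for CALU and -1.53 for SPTLC1. These genes were picked by that gap, so the counts describe them and are no test. PTGES3 and SPTLC1 each have 5 named pseudogenes in GENCODE 29. SPTLC1 was chosen after its values were seen. Without replicate 3, 5698 of 5832 changed genes tested in both fits remained changed in the same direction. The falls of EBPL, LMAN2, GCSH, DPYSL2 and B4GALT5 were present in all 3 libraries, which the ranking of falls required.

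**Figure D5:**
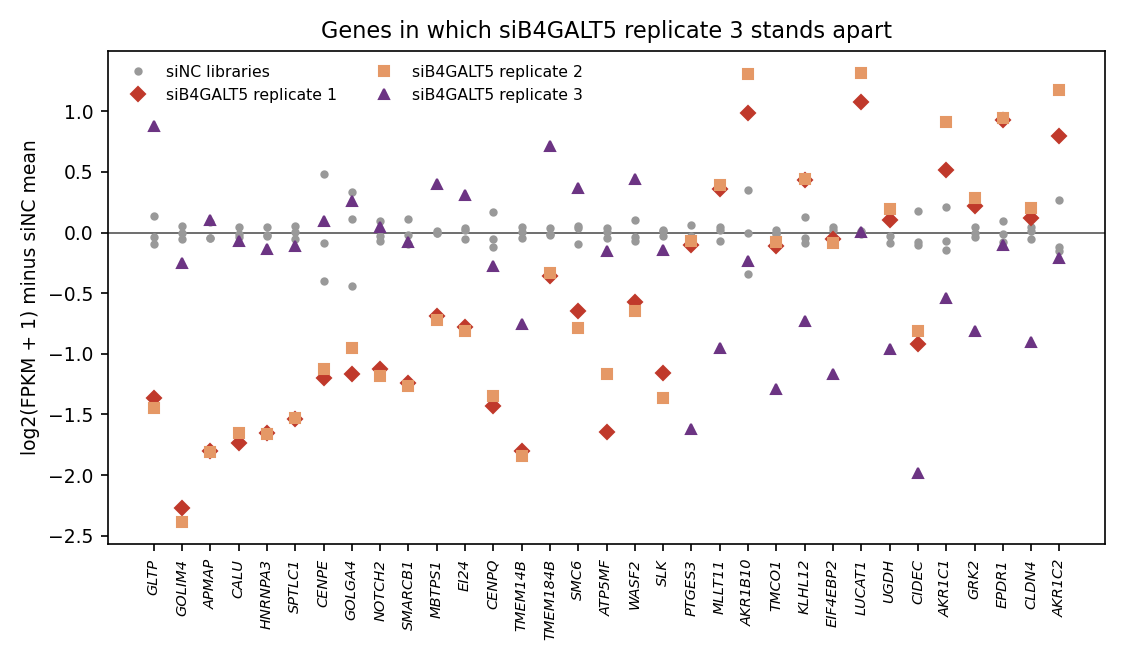
For the 33 genes in which siB4GALT5 replicate 3 stood at least 2-fold from both other knockdown libraries, log2(FPKM + 1) minus the siNC mean in each library. In most of the 19 genes above, replicate 3 lies near 0 with the siNC libraries while replicates 1 and 2 lie below.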

How the data were processed

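RNA sequencing of 6 AsPC-1 libraries (3 siNC, 3 siB4GALT5) was compared, with 3 siB3GNT3 libraries in a separate fit. The authors deposited FPKM per gene. Per the submitters' processing notes Bowtie2, RSEM 1.3.1, DESeq2 1.4.5 and GRCh38 were used, with roles not stated. Which annotation served is not stated in those notes. Genes of at least 1 FPKM in 3 of the 6 libraries entered limma (version 3.58.1, R version 4.3.3) on log2(FPKM + 1) with a mean-variance trend, and p-values were adjusted by Benjamini-Hochberg over all tested genes. Fold changes are on the log2(FPKM + 1) scale, which understates low genes. The fit was also run on simulated data in which few genes changed, so that run does not cover a change as broad as this one. Named genes were B4GALT5, the 15 largest rises and falls outside the interferon and stress lists (changed, groups not overlapping, a group mean of at least 5 FPKM), up to 6 a direction with a group mean of at least 100 FPKM, up to 4 of smallest p in each list, and the 6 of largest spread in siB4GALT5. Other genes are said to be chosen after their values were seen. The members and lists were chosen with earlier results of these data known. No label states separate cultures, so p-values speak only of the spread among libraries, which may be technical. Promoters are from RefSeq, GRCh38.p14. Some genes of the lists are not reported here.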

Additional observations from a re-analysis of the deposited data

How the results depend on the processing

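With a pseudocount of 0.1, 529 genes rose and 221 fell at least 2-fold. Leaving out each library in turn gave 4805 to 6667 changed genes (3019 to 3848 higher, 1739 to 2819 lower), 270 to 333 and 100 to 143 of them at least 2-fold, and -2.02 to -1.96 for B4GALT5. With the replicate number as a block, 5789 genes changed (3485 higher, 2304 lower). Same-numbered libraries correlated at 0.031, 0.060 and 0.026 in their deviations, and unlike-numbered ones at -0.044 to 0.013. Deviations from a mean of 3 libraries are tied to each other, so these small values cannot decide whether the libraries were paired. Against siB3GNT3 the block left 71 genes (27 higher, 44 lower), and leaving out each library gave 23 to 2693 (8 to 1422 higher, 15 to 1271 lower). The value for B4GALT5 there ran from -1.97 to -1.90. Against siB3GNT3, KDM6B turned to -0.23 without siB3GNT3 replicate 3, and was 0.92 without siB3GNT3 replicate 2. The causes were not tested. Depth is unknown from FPKM, which limits what can be said of low genes.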
